A study of Zea mays with 6 samples.

Results

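In 1 mm tassel meristems of maize, 134 nuclear genes were transcribed at a measurable level in wild-type plants and stood higher in every library of the tassel-less1 (tls1) mutant than in any wild-type library. They were chosen from the deposited counts, scaled to each library's sum as CPM, the number of counts that a gene has per 1000000 counted reads. A gene was kept if it reached 1 CPM in at least 1 wild-type library. In addition, its lowest tls1 value had to exceed its highest wild-type value by at least 0.5 on the scale log2(CPM + 0.1). This distance is called the gap below, and a gap of 0.5 or more was found in 134 of the 19793 nuclear genes that reached the wild-type level, or 0.677% of them. The table lists 43789 nuclear genes among 45953 features. A further 208 nuclear genes had such a gap but stayed under 1 CPM in all wild-type libraries and are not members. Because both the choice and every value below come from the same tls1 and wild-type libraries, the differences are descriptions. Fits across the whole table come last, as background, and no p-value in them is independent of the choice of members.

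The groups were B73 (WT, 3 libraries) and the tls1 mutant (3 libraries), whose labels also give the cultivar B73. All plants grew in a greenhouse under 16 h of light and 8 h of dark, with fertilizer set to 238 ppm nitrogen and thereby 0.08 ppm boron, and received no other treatment. Tissue was taken at the stage V6-V7, before the mutant tassel looks different, to ask which transcripts differ at that point. The labels name neither the tls1 allele nor the number of plants in a library, and do not say whether libraries came from separate plants. The spread between them may therefore be technical. Counted reads ranged from 72498318 to 77619452 per library. These are bulk samples, so more cells of a type and more RNA per cell cannot be told apart.

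Boron is an essential nutrient of plants, best known for cross-linking the pectic polysaccharide rhamnogalacturonan II in the growing cell wall. The maize gene tls1 encodes a membrane channel of the aquaporin family that lets boric acid into cells, and its loss leaves meristems short of boron, with tassels small or missing. Tassel meristems are stem cell populations at the shoot tip that give rise to the branches and spikelets of the male inflorescence. The reference table at hand had an entry for 0 of the 134 members, so they are called by identifier and no function is given. For the same reason the tissue could not be checked against its marker genes, and the tls1 transcript itself is not analysed here.

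Most members were weakly transcribed in WT. Their mean WT level ran from 0.604 to 687.2 CPM with a median of 3.37 CPM, against a median of 24.2 CPM over all 19793 nuclear genes at the WT level used. In tls1 their median level was 12.4 CPM. Of the members, 44 had a WT mean under 2 CPM, 57 lay from 2 to 10 CPM, 29 from 10 to 100 CPM and 4 at 100 CPM or more. As a share of all genes in those bands, members made up 2.41%, 1.38%, 0.257% and 0.159%. The rule favours low WT values, so these shares depend in part on the banding. By the mean over all 6 libraries, members were 11 of 1622 genes under 2 CPM and 61 of 4192 from 2 to 10 CPM. They were 53 of 11476 from 10 to 100 CPM and 9 of 2503 at 100 CPM or more. The lowest band then did not hold the largest share. The WT level of 91 members was below the lower quartile of all 19793 genes, 7.41 CPM.

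Over all genes at the WT level used, the difference between genotypes also varied with level. WT values enter both a WT mean and the difference, so genes were banded here by their mean over all 6 libraries. Under 2 CPM the median log2 difference (tls1 minus WT) was 0.10 and 58.4% of 1622 genes were above 0, and from 2 to 10 CPM it was 0.10 and 63.2% of 4192 genes. From 10 to 100 CPM the median was 0.00 and 51.1% of 11476 genes were above 0. At 100 CPM and over it was -0.05 and 37.2% of 2503 genes. Over all 19793 genes the median was 0.01, while the members, for which a positive value was required, had a median of 1.52.

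**Figure D1:**
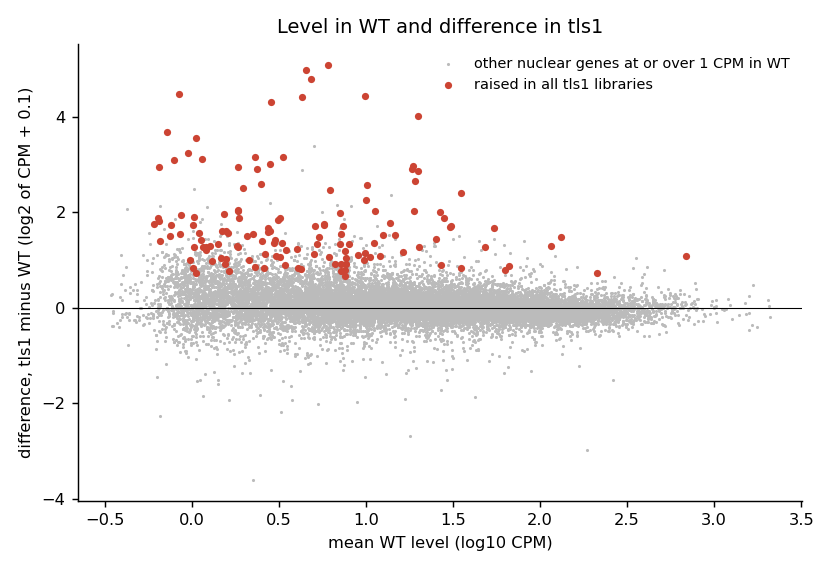
Mean WT level (log10 CPM, x axis) against the difference between tls1 and WT (mean log2 of CPM + 0.1 in tls1 minus that in WT, y axis), 1 point per nuclear gene at or over 1 CPM in a WT library. The 134 members (red) lie at differences of 0.67 to 5.09 and mostly at WT levels under 10 CPM; grey points are the other genes.

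The direction of separation depended on how wide a gap was asked for. With any gap above 0, fewer genes stood above WT in all tls1 libraries than below: 2100 genes (10.6%) were higher and 2435 (12.3%) lower. At a gap of 0.25 the counts were 324 higher and 216 lower. At the gap of 0.5 that defines the members, 134 were higher and 30 lower (0.152%). At a gap of 1 the counts were 34 and 5, and at a gap of 2 they were 10 and 0. Widely separated genes were thus mostly higher in tls1, and narrowly separated ones were slightly more often lower. The same asymmetry appeared in size alone, without regard to overlap: 311 of the 19793 genes had a log2 difference of at least 1 and 72 of at most -1. The level of 1 CPM was asked of WT only, so the directions are not counted over like sets. Genes under it in tls1 alone can count as lower. The 208 genes that were higher by a gap of at least 0.5 but under it in all WT libraries are left out.

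**Figure D2:**
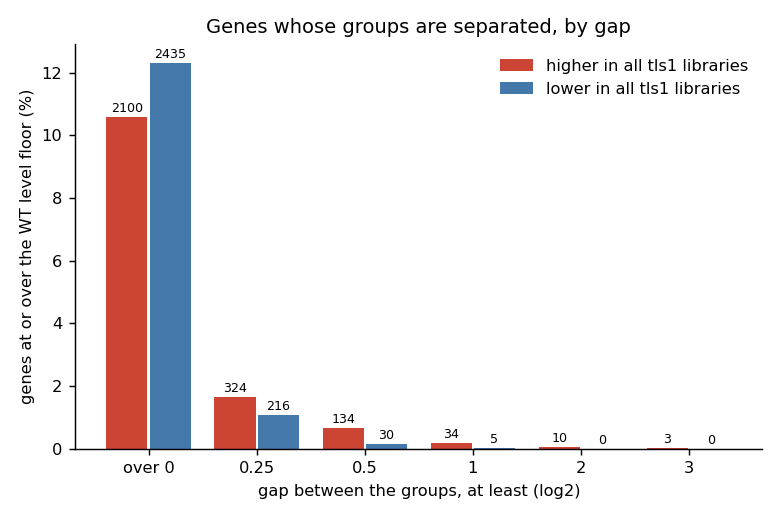
Share of the nuclear genes at or over the WT level (%, y axis) whose 3 tls1 libraries all lie above (red) or all below (blue) the 3 WT libraries by at least the gap on the x axis (log2); numbers over the bars are genes. Lower genes are more numerous with any gap (2435 against 2100) and higher genes at a gap of 0.5 (134 against 30).

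The members differed widely in size of change. Their log2 difference lay between 0.67 and 5.09 with a median of 1.52, a 2.86-fold change. It was under 1 in 22 members, from 1 to under 2 in 78, from 2 to under 3 in 18, from 3 to under 4 in 8 and 4 or more in 8. Of the 20 largest positive differences among all 19793 genes, 19 belonged to members. WT level and size of change were weakly related across the 134 members (Spearman's rho = -0.13, a description, in which all points share the same 6 libraries). WT values enter both quantities, so a negative rho may arise from that alone. A single gene, Zm00001d042540, was among the 20 members of highest WT level and also among the 20 of largest log2 difference.

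The widest gap was that of Zm00001d042541. It had 6.49, 6.80 and 4.85 CPM in WT 1, 2 and 3 and 115.2, 342.9 and 226.6 CPM in tls1 1, 2 and 3. Its WT libraries were alike, and the lowest tls1 library was still far above them. The log2 difference was 5.09 ± 0.84 (SD of the 3 differences between libraries of the same number). In WT, 22.0% of the 19793 genes had a lower mean level than Zm00001d042541, and in tls1 96.9% did.

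Zm00001d042540 is listed in the row before it. This gene had 20.8, 22.1 and 16.5 CPM in WT 1, 2 and 3 and 177.6, 462.4 and 405.9 CPM in tls1 1, 2 and 3. As in its neighbour, the WT values were close together and tls1 1 was the lowest tls1 library. The log2 difference was 4.03 ± 0.82 (SD, n = 3 pairs), and its mean of 348.6 CPM in tls1 exceeded that of 98.5% of genes.

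The gap of Zm00001d042540 was the fourth widest. In the second, the third and the fifth gene by gap, the WT libraries themselves were spread out. Zm00001d053675 had 1.65, 8.37 and 4.52 CPM in WT 1, 2 and 3 and 85.1, 144.5 and 116.3 CPM in tls1 1, 2 and 3. Zm00001d040028 had 1.29, 7.95 and 4.28 CPM in WT 1, 2 and 3 and 70.9, 243.3 and 89.3 CPM in tls1 1, 2 and 3. Zm00001d048841 had 4.23, 15.2 and 10.1 CPM in WT 1, 2 and 3 and 120.1, 253.3 and 228.3 CPM in tls1 1, 2 and 3. All 3 genes had the same order in WT, with library 2 highest and library 1 lowest, and all had their highest tls1 value in library 2 and their lowest in library 1. Their log2 differences were 4.79 ± 0.76, 4.98 ± 0.66 and 4.44 ± 0.38 (SD, n = 3 pairs).

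The sixth gene by gap, Zm00001d029356, was barely transcribed in WT. It had 0.490, 1.08 and 0.588 CPM in WT 1, 2 and 3 and 8.26, 10.4 and 11.6 CPM in tls1 1, 2 and 3, a log2 difference of 3.69 ± 0.48 (SD, n = 3 pairs). It reached 1 CPM in WT 2 alone. Such members were few: 17 of the 134 reached 1 CPM in 1 WT library, 11 in 2 and 106 in all 3.

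The median log2 difference of the members did not fall steadily with their WT level. It was 1.59 under 2 CPM, 1.36 from 2 to 10 CPM, 1.69 from 10 to 100 CPM and 1.19 in the 4 members at 100 CPM or more. WT values enter both the bands and the difference. In bands of the mean over all 6 libraries, with the same limits, the medians were 1.515, 1.364, 1.711 and 1.674. The highest band, with 9 members, was then not the lowest.

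The members of highest WT level differed as follows. Zm00001d028998 had by far the highest level, with 612.6, 795.9 and 653.0 CPM in WT 1, 2 and 3 and 1875, 1334 and 1236 CPM in tls1 1, 2 and 3. The groups did not overlap, and tls1 1 stood above the other two tls1 libraries. Its log2 difference was 1.09 ± 0.46 (SD, n = 3 pairs). Zm00001d022181 followed with 215.5, 217.4 and 202.0 CPM in WT 1, 2 and 3 and 313.4, 424.2 and 326.3 CPM in tls1 1, 2 and 3. It had a narrow WT range and a log2 difference of 0.73 ± 0.21. Zm00001d027652 had 131.4, 168.3 and 97.7 CPM in WT 1, 2 and 3 and 466.1, 332.1 and 300.7 CPM in tls1 1, 2 and 3, a log2 difference of 1.48 ± 0.44.

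Zm00001d014617 had 103.1, 124.0 and 121.1 CPM in WT 1, 2 and 3 and 379.4, 274.8 and 219.2 CPM in tls1 1, 2 and 3, a log2 difference of 1.29 ± 0.53 (SD, n = 3 pairs). In this gene, in Zm00001d027652 and in Zm00001d028998, tls1 1 was the highest library and tls1 3 the lowest, unlike in the genes of widest gap. The fifth and sixth by level, Zm00001d037941 and Zm00001d028948, had 65.9 ± 9.39 and 62.5 ± 5.41 CPM in WT and 119.7 ± 13.3 and 109.1 ± 16.1 CPM in tls1 (SD, n = 3 each).

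Summed over all members, the level was 2003, 2637 and 1984 CPM in WT 1, 2 and 3 and 6575, 7666 and 6615 CPM in tls1 1, 2 and 3. Zm00001d028998 alone made up 31.1% of the WT sum. Without it the sums were 1391, 1842 and 1331 CPM in WT 1, 2 and 3 and 4700, 6332 and 5379 CPM in tls1 1, 2 and 3. Library 2 had the highest sum within each genotype.

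**Figure D3:**
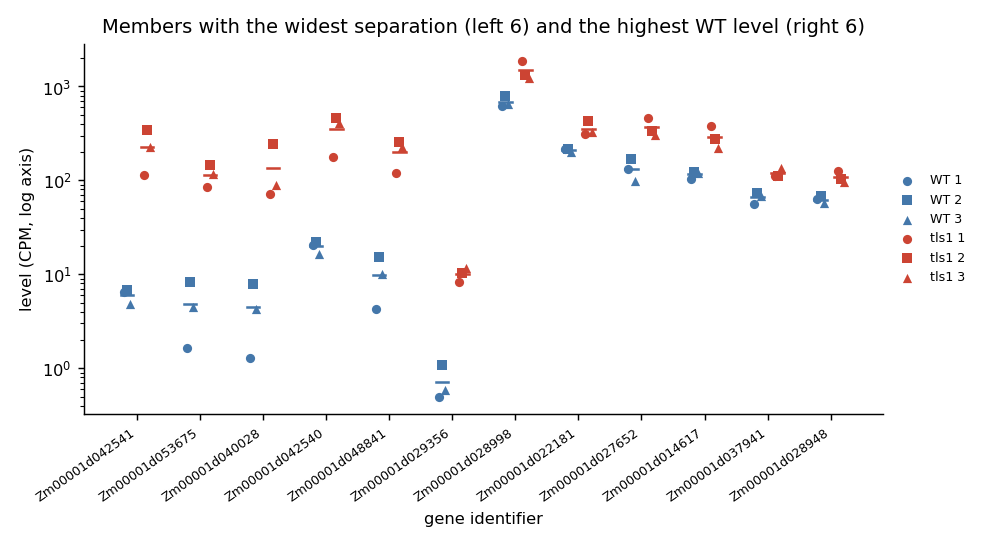
Level in each library (CPM, log axis) of the 6 members with the widest gap (left) and the 6 with the highest WT level (right), WT in blue and tls1 in red; marker shapes are library numbers and bars are means of 3 libraries. The left genes differ by log2 values of 3.69 to 5.09 and the right ones by 0.73 to 1.48.

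WT 2 bore on which genes were members. It was the highest WT library in 105 of the 134 members (78.4%), against 34.5% of all 19793 genes. The rule uses the highest WT value, for the level of 1 CPM and for the gap. The count is therefore partly fixed by the choice. WT 1 was the lowest in 81. The order WT 2 over WT 3 over WT 1 was found in 68 members (50.7%) and in 18.6% of all genes. The median log2 difference between WT 2 and WT 1 was 0.50 in members and -0.01 in all genes. At least a 2-fold excess of WT 2 over WT 1 was seen in 30 members (22.4%, against 3.8% of all genes), and a 2-fold deficit in 0. Part of this went with low level: among genes with a WT mean under 10 CPM, WT 2 was highest in 77 of 101 members and in 52.2% of all 5969 genes. Many members were thus higher in WT 2 than in the other WT libraries.

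The members also varied more between WT libraries than all genes at the WT level used, though without a close match for level. The median SD of log2(CPM + 0.1) over the WT libraries was 0.36 in members and 0.12 in all 19793 genes. Under a WT mean of 10 CPM it was 0.36 in members and 0.27 in all genes. Within that band members sat lower, with 44 of 101 under 2 CPM against 1827 of 5969 genes. In tls1 the median SD was 0.31 in members and 0.13 in all genes, without a match for level. Among tls1 libraries, tls1 1 was lowest in 60 members, tls1 3 in 52 and tls1 2 in 22, while over all 19793 genes the shares were 34.1%, 41.3% and 24.6%. When WT 2 was left out and the rule applied to the other 5 libraries, 401 genes met it, of which 120 were members. The members lost had reached 1 CPM in WT 2 alone, so WT 2 kept some genes out and let others in. Without tls1 3, 345 genes met it, and without tls1 1, 212 did, with all 134 members among them in both cases.

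The libraries carry the same numbers in both genotypes, and over all genes the libraries of 1 number deviated together from their genotype means. The 3 same-numbered pairs were therefore compared. Every member was higher in tls1 by at least 0.5 in all 3 pairs, which the rule fixes. The size was not fixed. The median log2 difference of the members was 1.61 in pair 1, 1.21 in pair 2 and 1.46 in pair 3, while over all genes the medians were 0.01, 0.01 and -0.01. Pair 2 gave the smallest difference in 73 members, pair 3 in 37 and pair 1 in 24. The largest difference came from pair 1 in 69 members, pair 3 in 50 and pair 2 in 15. Each difference contains the WT library of its number, and WT 2 was the highest WT library in 105 members and WT 1 the lowest in 81. This order of the pairs is therefore partly a restatement of the WT levels given above. A difference of at least 1, or 2-fold, was reached by 113 members in pair 1, 84 in pair 2, 104 in pair 3 and 70 in all 3.

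The pairs ranked the members alike, though not closely. Across the 134 members, pair differences had Pearson's r = 0.80 between pairs 1 and 2, 0.71 between pairs 1 and 3 and 0.75 between pairs 2 and 3, with Spearman's rho of 0.67, 0.61 and 0.64. These are descriptions across genes, which are not independent replicates, and a common lower limit of 0.5 holds in each pair. The 3 differences of a member spanned a median range of 0.85 on the log2 scale. The range was under 0.5 in 34 members, under 1 in 84 and 2 or more in 7. The SD of the 3 differences had a median of 0.45, against 0.15 over all 19793 genes, which were not matched to the members for level. Deviations of WT and tls1 libraries of 1 number from their genotype means were correlated across members at 0.36, 0.31 and 0.11 for numbers 1, 2 and 3, and across all genes at the WT level at 0.60, 0.72 and 0.81. The points in these correlations share the same 6 libraries and are given without tests. The rule allows no overlap, so it leaves out genes in which deviations shared by number outweigh the genotype difference. The correlations in members are therefore partly fixed by the choice. Members were also mostly weak genes, and how much of the contrast with all genes goes with level or with the choice was not tested.

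The pairs agreed best in Zm00001d045311. It had 3.03, 3.85 and 3.38 CPM in WT 1, 2 and 3 and 5.68, 7.42 and 6.38 CPM in tls1 1, 2 and 3, with differences of 0.89, 0.93 and 0.90 in pairs 1, 2 and 3. Its level varied between numbers in parallel in both genotypes, which follows from its choice for the smallest SD of the pair differences. Zm00001d053234 had 1.65, 1.64 and 1.64 CPM in WT 1, 2 and 3 and 2.82, 3.06 and 2.81 CPM in tls1 1, 2 and 3. Its counts were 119 to 128 in WT and 210 to 225 in tls1, and whether its spread exceeded counting error was not tested. Zm00001d029924 had the smallest change of all members, 0.67 ± 0.12 (SD, n = 3 pairs), from 7.21, 7.59 and 7.87 CPM in WT 1, 2 and 3 to 11.4, 13.3 and 11.6 CPM in tls1 1, 2 and 3.

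The pairs agreed least in Zm00001d018704 and Zm00001d011079, and in the same way. Zm00001d018704 had 1.39, 4.55 and 2.58 CPM in WT 1, 2 and 3 and 58.2, 166.6 and 15.03 CPM in tls1 1, 2 and 3, with differences of 5.29, 5.16 and 2.5. Zm00001d011079 had 0.387, 1.38 and 0.762 CPM in WT 1, 2 and 3 and 18.3, 62.4 and 5.87 CPM in tls1 1, 2 and 3, with differences of 5.24, 5.40 and 2.79. In both genes tls1 2 was the highest and tls1 3 the lowest tls1 library, and WT 2 the highest WT library. Zm00001d013844 differed, with tls1 1 highest: it had 0.361, 1.20 and 0.388 CPM in WT 1, 2 and 3 and 10.7, 5.44 and 2.17 CPM in tls1 1, 2 and 3. The 16 members with a log2 difference of at least 3 had tls1 2 as their highest tls1 library in 11 cases, tls1 3 in 4 and tls1 1 in 1, and WT 2 as their highest WT library in 15.

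**Figure D4:**
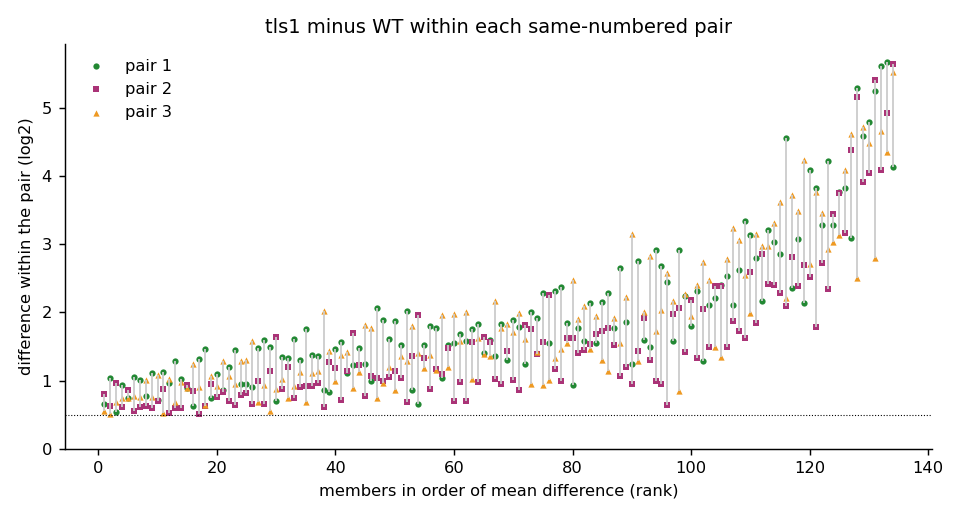
Difference between tls1 and WT within each pair of libraries of the same number (log2 of CPM + 0.1, y axis) for the 134 members in order of their mean difference (x axis); grey lines span the 3 pairs and the dotted line is 0.5. Pair 2 is lowest in 73 members, and the span reaches 2 or more in 7.

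At the edge of the rule the values ran on without a break. The 3 members just inside were Zm00001d027991, Zm00001d021775 and Zm00001d028948, with gaps of 0.506, 0.508 and 0.510. The 3 genes just outside were Zm00001d052182, Zm00001d008909 and Zm00001d020170, with gaps of 0.4962, 0.4959 and 0.4957. Their log2 differences were 1.11, 0.90 and 0.87, and those of the members just inside were 0.91, 0.84 and 0.80, in the order named, so the ranges overlapped. Zm00001d052182, for example, had 5.31, 6.77 and 6.11 CPM in WT 1, 2 and 3 and 17.6, 13.5 and 9.59 CPM in tls1 1, 2 and 3. Its difference was large in pair 1 but its lowest tls1 library, number 3, lay close to WT 2.

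A few members sat side by side in the table. In 75.2% of the steps between successive nuclear rows the identifier goes up to the next number, and in 94.9% it ascends. The table gives no coordinates, so a row distance is not a distance on a chromosome. For 9 of the 134 members another member lay within 5 rows, and in each case in the very next row. They formed 4 runs, 1 of 3 members and 3 of 2. Within 10 rows the number was 14 and within 50 rows 36. The median distance to the nearest other member was 114.5 rows. What a random spread of 134 members over 43789 nuclear rows would give was not computed. These counts and distances therefore do not by themselves show grouping.

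The run of 3 comprised Zm00001d040027, Zm00001d040028 and Zm00001d040029. Zm00001d040027 had 10.9, 30.5 and 14.3 CPM in WT 1, 2 and 3 and 92.6, 159.1 and 161.3 CPM in tls1 1, 2 and 3. Zm00001d040029 had 11.3, 31.3 and 12.7 CPM in WT 1, 2 and 3 and 82.7, 152.7 and 157.1 CPM in tls1 1, 2 and 3. These outer genes had nearly the same level in each library, with a ratio between 0.891 and 1.04 in all 6. Their log2 differences were 2.98 ± 0.56 and 2.92 ± 0.67 (SD, n = 3 pairs).

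The gene between them, Zm00001d040028, did not follow that profile. Its level relative to Zm00001d040027 went from 0.118 in WT 1, 0.261 in WT 2 and 0.299 in WT 3 to 0.766, 1.53 and 0.554 in tls1 1, 2 and 3. Whether reads of near-identical copies were shared between such neighbours was not tested, and the counting program and its settings are not known here. The next expressed gene in the table, Zm00001d040033, was not higher in tls1: it had 21.7, 20.2 and 25.7 CPM in WT 1, 2 and 3 and 11.0, 20.2 and 13.7 CPM in tls1 1, 2 and 3.

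The pair Zm00001d042540 and Zm00001d042541 held the widest gap, as given above. The second gene stood at 0.313, 0.307 and 0.294 of the level of the first in WT 1, 2 and 3 and at 0.649, 0.742 and 0.558 in tls1 1, 2 and 3, so it differed more between genotypes than the first. Close by, Zm00001d042543 showed no such difference. It had 19.6, 18.4 and 19.6 CPM in WT 1, 2 and 3 and 18.9, 18.6 and 21.3 CPM in tls1 1, 2 and 3.

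The other two runs were smaller in size of change. Zm00001d021689 and Zm00001d021690 had log2 differences of 1.21 ± 0.23 and 2.26 ± 0.68 (SD, n = 3 pairs). Zm00001d021690 had 8.68, 14.5 and 6.92 CPM in WT 1, 2 and 3 and 50.5, 40.9 and 48.1 CPM in tls1 1, 2 and 3. A little further on, Zm00001d021692 had the same direction at 0.747, 0.924 and 0.642 CPM in WT 1, 2 and 3 and 4.19, 5.29 and 3.25 CPM in tls1 1, 2 and 3, but it stayed under 1 CPM in WT and is no member. In the run of Zm00001d050196 and Zm00001d050198, the first gene had a single high library, tls1 3. It had 12.6, 19.6 and 9.21 CPM in WT 1, 2 and 3 and 29.9, 37.8 and 82.1 CPM in tls1 1, 2 and 3.

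**Figure D5:**
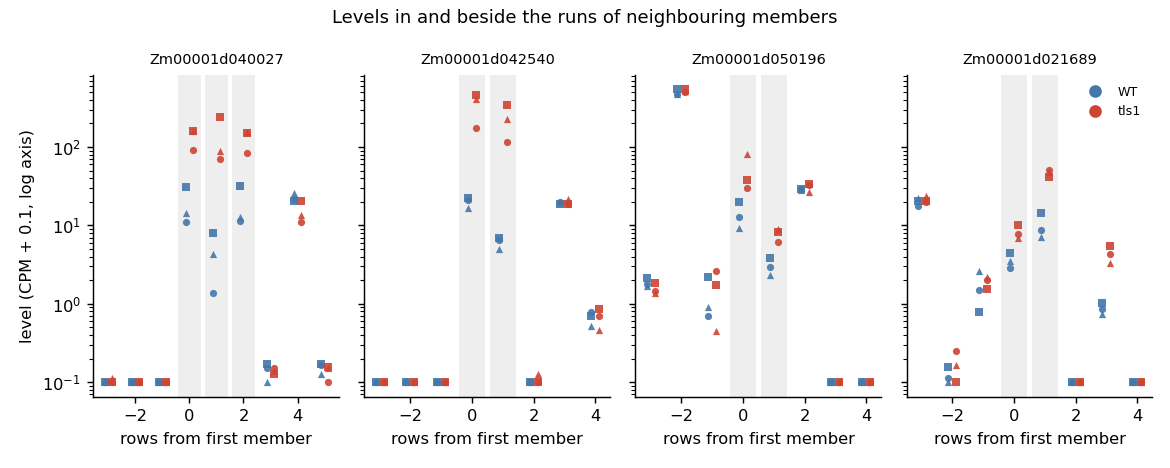
Level (CPM + 0.1, log axis) in each WT (blue) and tls1 (red) library of the genes in the 4 runs of neighbouring members and of the 3 table rows on either side; each panel is titled by its first member, shading marks members, and marker shapes are library numbers as in the plot of leading members. The members are separated by genotype, while most genes in rows beside them are near 0 or overlap.

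The expressed genes flanking members had small differences on the whole. The nearest other genes at the WT level on either side of a member numbered 255 in all. Their median log2 difference was 0.07, with quartiles of -0.09 and 0.26, and 59.6% were above 0. Over all such genes that are no members, the median was 0.01, the quartiles were -0.12 and 0.16 and 52.2% were above 0. Of the flanking genes, 41 (16.1%) stood above WT in all tls1 libraries with any gap, where 1966 of all 19659 non-members did. These counts are descriptions, and neighbours of weakly expressed genes were not matched for level.

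Fits across the whole table give the background to these descriptions. The quasi-likelihood test of edgeR with genotype as its only factor called 1 of 23349 tested genes higher in tls1 at an adjusted p under 0.05 (0.00428%). It was the member Zm00001d005813. Its levels were 7.83, 6.08 and 7.46 CPM in WT 1, 2 and 3 and 27.6, 28.0 and 29.2 CPM in tls1 1, 2 and 3, the log2 difference was 1.98 ± 0.19 (SD, n = 3 pairs), and edgeR gave an adjusted p of 0.0252. The edgeR call of this gene stayed without WT 2 (adjusted p = 0.0208) and was lost without any other library, at an adjusted p from 0.0678 without tls1 1 to 0.298 without WT 3. All 134 members were tested and passed the filter on low counts.

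With the library number as a replicate block, edgeR called 115 genes higher (0.493%), of which 58 were members. DESeq2 without the block called 681 genes (2.92%), of which 132 were members, and with it 900 (3.85%), of which 129 were members. Since members were selected on the same contrast, a high share among the calls follows from the selection and nothing is read from it. The number of calls also changed when 1 library was left out. Without the block, edgeR then called from 0 to 9 genes higher, and from 0 to 8 of the members. It called 0 without WT 1, WT 3, tls1 2 or tls1 3, 2 members without tls1 1 and 8 without WT 2. Such fits also have fewer libraries, so whether the calls depend on particular libraries was not tested.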

How the data were processed

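Poly-A enriched RNA of 3 WT and 3 tls1 libraries was sequenced as paired reads, per the labels' protocols. The submitters' processing notes name cutadapt and STAR. Overlapping, antisense and near-identical genes cannot be told apart with certainty, since versions, build, counting and its use of strand were not given in the sources used here. The authors deposited raw counts per gene, not normalized. From these counts CPM was computed by the sum of each column, and log2(CPM + 0.1) from CPM. A count of 3 corresponds to between 0.0387 and 0.0414 CPM. The lowest count of a member was 14, for Zm00001d012443 in WT 1 (0.180 CPM, exact Poisson 95% interval 0.0986 to 0.303). Such limits cover counting error only.

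The members, the rule and the lists were chosen with earlier results of these data known. Members printed are the 6 of highest WT level, the 6 of widest gap, the 3 just inside and 3 genes just outside the limit, the 3 with the largest and 3 with the smallest SD of pair differences, and the runs of neighbours, where runs tied in length were all kept. Zm00001d005813, Zm00001d012443 and genes beside runs fall outside this rule and were named after their values were seen. The lists of meristem, boron and gibberellin genes named by symbol could not be used, because 0 of 43789 nuclear identifiers had an entry in the reference table (assembly Zm-B73-REFERENCE-NAM-5.0).

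R 4.3.3 was used for tests of the counts, with edgeR 4.0.16 (TMM, filterByExpr, quasi-likelihood F test, Benjamini-Hochberg adjustment over 23349 genes) and DESeq2 1.42.0 as an alternative. Both were run on simulated counts with known changes, which had the same dispersion in all genes and no effect of library number. How the fits perform on libraries with such an effect was not tested. Descriptions used Python 3.11.15 with pandas 2.3.3. Deviations from the genotype means of same-numbered libraries correlated at 0.402, 0.584 and 0.668 over 23349 genes for numbers 1, 2 and 3. All were over 0.1, so the numbers were taken to pair the libraries, from the data alone, since no label explains the numbers.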

Additional observations from a re-analysis of the deposited data

How the results depend on the processing

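The 134 members were 103 to 133 with a pseudocount of 0.5 or 1 CPM or with TMM or RLE library sizes, and 101 to 172 with a WT level of 0.5 or 2 CPM or with 1 CPM in all WT libraries. The count was 65 at a WT level of 5 CPM, 324 at a gap of 0.25 and 34 at a gap of 1, which follow from the settings. With the replicate block, that is, a difference of at least 0.5 in each pair with overlap allowed, it was 352, all members included. Leaving out 1 library gave from 155 to 401. The median log2 difference was 1.21 with a pseudocount of 1, which lowers the changes of weak genes, 1.34 with a pseudocount of 0.5, 1.49 with the replicate block (the median of the pair differences), and from 1.38 to 1.68 without 1 library. Members with another member close by numbered 9 within 1 row and 14 within 10 rows or within 5 places among expressed genes. Over the 29 named genes, 84 of 87 values moved by less than the SD of the pair differences. The other 3 moved by more, with a pseudocount of 1, and 0 changed sign. The choice of genes all but fixed the sign, since in each of them every tls1 library lay above every WT library.

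Of genes called higher, edgeR gave 1 (1 member), 13 (10 members) with no filter and 115 (58 members) with the replicate block. DESeq2 gave 681 (132 members) and with the replicate block 900 (129 members). Leaving out 1 library gave from 0 to 9 genes and from 0 to 8 members. Chosen after seeing the data, the replicate block without pair 1 gave 301 (81 members), without pair 2 gave 122 (54 members) and without pair 3 gave 43 (30 members). Apart from the fewer libraries or the change of filter, the cause was not tested.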
